A study of Homo sapiens with 2 samples.

Results

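Amino acid transporters of the cell surface were examined in A549 cells, a human lung adenocarcinoma line, as a set of 10 solute carrier genes chosen by symbol: SLC7A11, SLC7A5, SLC7A1, SLC3A2, SLC1A4, SLC1A5, SLC38A1, SLC38A2, SLC6A9 and SLC43A1. Of these, 9 were analysed among the 13137 genes of the tag table, and SLC43A1 was not analysed here. Of the 9, 8 were called lower in the shRNA-SOX2-labelled library at an FDR of 0.001 and 0 higher, beside 12.2% and 9.53% of all genes. The set was chosen with earlier results of these data known, so these shares are a description and no test of the set. The most reduced were SLC1A4, SLC7A1 and SLC7A5, at less than 30% of their shRNA-Con level, and the least reduced was SLC38A2, at 69.8%.

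The study asked which genes depend on the transcription factor SOX2 in lung cancer cells. Both groups were A549 cells with a lentiviral, doxycycline-inducible H1tetO hairpin, kept as puromycin-selected polyclonal populations, and both were given doxycycline for 4 days. They differed in the hairpin, which was either directed against SOX2 (shRNA-SOX2) or a scrambled sequence (shRNA-Con), and 1 library was made for each from 4 µg of total RNA. In digital gene expression profiling 1 short tag is cut from each captured mRNA and sequenced, so that a gene's value is a number of tags and does not grow with transcript length. Levels are given as CPM, here tags scaled to 1000000 gene tags of the library. The value columns are abbreviated SC and S1, and SC was read as shRNA-Con and S1 as shRNA-SOX2.

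The libraries held 2304184 tags on genes for shRNA-Con and 2093816 for the shRNA-SOX2-labelled library. The targeted gene, SOX2, had 16 tags in shRNA-Con against 23 in the other library (ratio 1.58, 95% interval 0.80 to 3.20, adjusted p = 0.333, Fisher's exact test). Its mRNA was thus not detectably lower, and a library is named here by its label. The authors reported silencing of SOX2 in A549 cells with this hairpin by Western blotting, which measures protein. Tags count mRNA, so they do not test that result. The 7 epithelial markers analysed of 9 summed to 22012 tags in shRNA-Con against 22405 in the other library, nearly all from keratins KRT8, KRT18 and KRT7. Other epithelial markers were sparse, with 50 tags in either library for CDH1, 8 and 4 for EPCAM and 0 and 2 for CLDN4, while KRT19 had 35 and 127, and the lung markers SFTPC and NKX2-1 were not analysed here. The keratins were unequal between the libraries, with KRT8 and KRT19 called higher and KRT18 and KRT7 called lower in the shRNA-SOX2-labelled library. The 5 fibroblast markers analysed of 9 summed to 53 tags in shRNA-Con against 70 in the other library, with PDGFRB and FAP at 0 in shRNA-Con. The 4 leukocyte and endothelial markers analysed of 9 summed to 18 and 17 tags, with PECAM1 at 0 in the shRNA-SOX2-labelled library. With 1 library per group there is no replicate check, and each p-value compares these libraries, not the conditions. Fewer cells that express a gene and less RNA per cell cannot be told apart.

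Amino acids enter cells through carriers that differ in substrate and driving force. SLC3A2, also called 4F2hc or CD98, is a glycoprotein heavy chain that carries several SLC7 light chains to the cell surface. With SLC7A11 it forms system xc-, which takes up cystine in exchange for glutamate and so feeds glutathione synthesis, and with SLC7A5 it forms LAT1, which takes up leucine and other large neutral amino acids. SLC7A1 (CAT1) carries arginine and lysine without a heavy chain. SLC1A4 (ASCT1) and SLC1A5 (ASCT2) are sodium-dependent exchangers of small neutral amino acids, the latter a main route for glutamine. SLC38A1 (SNAT1) and SLC38A2 (SNAT2) concentrate glutamine and alanine with sodium, SLC6A9 (GlyT1) takes up glycine, and SLC43A1 (LAT3) is a sodium-independent carrier of branched-chain amino acids. Transcription of many of these genes is known to respond to amino acid shortage through ATF4, which pairs with C/EBP proteins on a composite DNA element.

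The heavy chain, SLC3A2 (Entrez Gene ID 6520), was the most abundant of the 9 in tags. It had 1815 tags in shRNA-Con against 766 in the shRNA-SOX2-labelled library, or 788 and 366 CPM. Its level was 2.15-fold lower in the shRNA-SOX2-labelled library (95% interval 1.98 to 2.35, log2 fold change -1.11, adjusted p = 8.38e-75, Fisher's exact test). The intervals of its levels did not overlap between the libraries.

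The partners of the heavy chain were lower to unequal extents. SLC7A11 (23657), the cystine carrier, had 1229 tags in shRNA-Con against 712 in the shRNA-SOX2-labelled library, which is 533 and 340.0 CPM. It was 1.57-fold lower (95% interval 1.43 to 1.72, log2 fold change -0.65, adjusted p = 8.74e-21, Fisher's exact test). SLC7A5 (8140), the light chain of LAT1, started at a similar level, with 1352 tags or 587 CPM, and had 359 tags or 171 CPM in the shRNA-SOX2-labelled library. It was 3.42-fold lower (95% interval 3.04 to 3.86, log2 fold change -1.77, adjusted p = 2.69e-113, Fisher's exact test). Among the 9 transporters SLC7A5 had the smallest p-value.

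SLC7A1 (6541), the arginine and lysine carrier, had 485 tags in shRNA-Con against 128 in the other library, 210.5 and 61.1 CPM. This was a 3.44-fold lower level (95% interval 2.83 to 4.22, log2 fold change -1.78, adjusted p = 5.79e-41, Fisher's exact test). Its fold change could not be separated from that of SLC7A5, with a difference of 0.01 on the log2 scale (95% interval -0.33 to 0.35).

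The neutral amino acid exchangers of the SLC1 family also had fewer tags. SLC1A4 (6509) had 199 tags in shRNA-Con against 50 in the shRNA-SOX2-labelled library, 86.4 and 23.9 CPM. It was 3.62-fold lower (95% interval 2.64 to 5.04, log2 fold change -1.85, adjusted p = 5.39e-18, Fisher's exact test), the lowest fold change of the 9. Its relative SLC1A5 (6510), the glutamine exchanger, had 1101 and 582 tags, 478 and 278 CPM. SLC1A5 was 1.72-fold lower (95% interval 1.55 to 1.90, log2 fold change -0.78, adjusted p = 1.19e-25, Fisher's exact test).

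The sodium-coupled glutamine and alanine carriers were at like levels in shRNA-Con and apart in the other library. SLC38A1 (81539) had 729 tags in shRNA-Con against 253 in the shRNA-SOX2-labelled library, 316 and 121 CPM, which is 2.62-fold lower (95% interval 2.27 to 3.03, log2 fold change -1.39, adjusted p = 5.95e-43, Fisher's exact test). SLC38A2 (54407) had 697 and 442 tags, 302 and 211 CPM, and was 1.43-fold lower (95% interval 1.27 to 1.62, log2 fold change -0.52, adjusted p = 2.38e-08, Fisher's exact test). The SLC38A2 decrease was the smallest of the 9.

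SLC6A9 (6536), the glycine carrier, was the least abundant of the 9. It had 42 tags in shRNA-Con against 17 in the shRNA-SOX2-labelled library, 18.2 and 8.12 CPM. The ratio corresponds to a 2.25-fold lower level (95% interval 1.25 to 4.21, log2 fold change -1.17), and at this depth it did not pass the threshold (adjusted p = 0.0130, Fisher's exact test). SLC6A9 overlaps CCDC24 and an uncharacterised noncoding gene, SLC7A11 and SLC7A5 each have an antisense RNA gene, SLC1A4 overlaps the pseudogene RNU6-548P, and SLC7A5 overlaps microRNA genes and has the pseudogenes SLC7A5P1 and SLC7A5P2. Of these genes CCDC24 was in the tag table, and the others were not analysed here. Whether the counting used strand, and how tags shared between such genes were assigned, is not given in the sources used here, so the values of these transporters are uncertain to that extent.

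**Figure D1:**
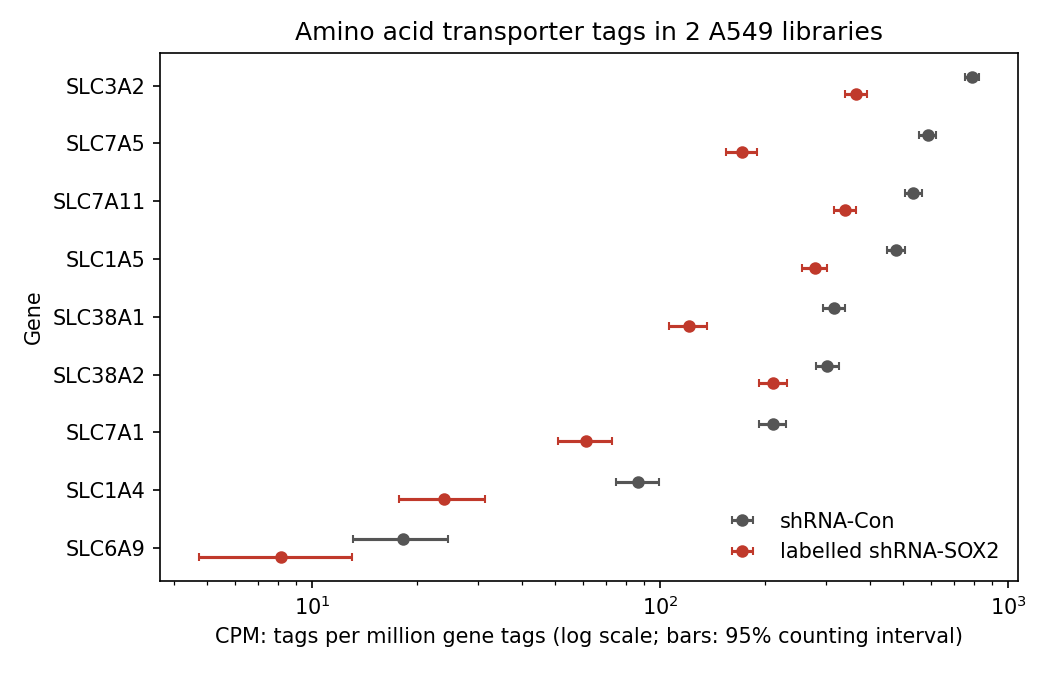
CPM (tags scaled to 1000000 gene tags, log axis) of the 9 transporters in shRNA-Con and in the shRNA-SOX2-labelled library, with 1 library per condition and 95% counting intervals as bars. In each of the 9 the point for the shRNA-SOX2-labelled library lies lower, from 788 against 366 for SLC3A2 to 18.2 against 8.12 for SLC6A9.

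Together the 9 transporters took 7649 tags in shRNA-Con, 0.332% of the gene tags (exact binomial 95% interval 0.325 to 0.339%). In the shRNA-SOX2-labelled library they took 3309 tags, 0.158% (0.153 to 0.164%). The ratio of the shares was 0.476 (95% interval 0.457 to 0.496). The log2 ratio was -1.07, and the most tagged members, SLC3A2, SLC7A5, SLC7A11 and SLC1A5, weigh most in it.

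The plot of fold changes by scaling sets the 9 genes in order. From the lowest fold change the order was SLC1A4, SLC7A1, SLC7A5, SLC38A1, SLC6A9, SLC3A2, SLC1A5, SLC7A11 and SLC38A2. Most neighbours in it did not differ beyond counting error. SLC38A1 was less reduced than SLC7A5 by 0.39 on the log2 scale (95% interval 0.11 to 0.66), and SLC1A5 less than SLC3A2 by 0.32 (0.13 to 0.52). Of the 36 pairs of genes, 22 had a difference in fold change whose interval left out 0, without adjustment for the number of pairs. Scaling to clean tags placed each fold change lower by 0.11, and TMM factors placed each higher by 0.07. The order does not depend on the scaling, since a scaling moves all 9 equally.

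**Figure D2:**
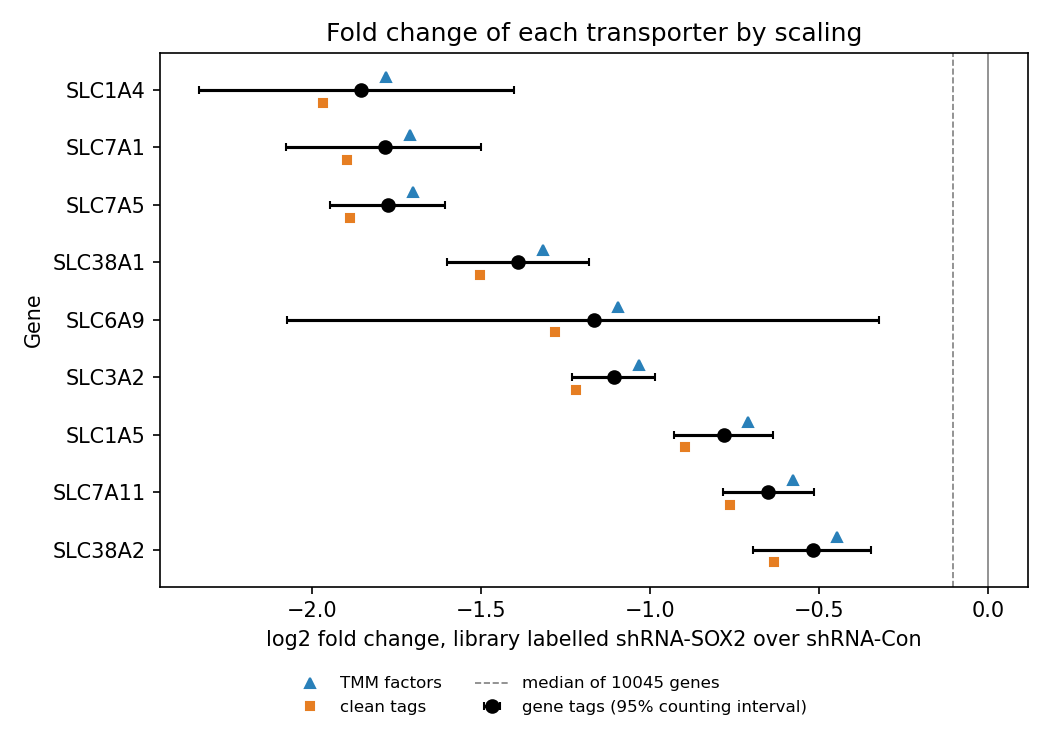
Log2 fold change of each transporter (shRNA-SOX2-labelled library over shRNA-Con) with its 95% counting interval, scaled to gene tags (black circles), TMM factors (triangles) or clean tags (squares), and the median of 10045 genes as a dashed line. The values run from -1.85 for SLC1A4 to -0.52 for SLC38A2, and all lie below the median of -0.10 under each scaling shown.

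The relative abundance of the transporters was also rearranged. In shRNA-Con the order by tags was SLC3A2, SLC7A5, SLC7A11, SLC1A5, SLC38A1, SLC38A2, SLC7A1, SLC1A4 and SLC6A9. The intervals of neighbours overlapped from SLC7A5 to SLC1A5 and between SLC38A1 and SLC38A2. In the shRNA-SOX2-labelled library the order was SLC3A2, SLC7A11, SLC1A5, SLC38A2, SLC7A5, SLC38A1, SLC7A1, SLC1A4 and SLC6A9, and only SLC3A2 and SLC7A11 overlapped. SLC7A5 therefore moved from the second place to the fifth. The efficiency with which each gene's tag is captured is unknown, so that an order within a library is an order of tags.

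Ratios of members within a library are free of the scaling between libraries. For the cystine carrier against its heavy chain, the ratio of SLC7A11 to SLC3A2 tags was 0.677 (95% interval 0.629 to 0.728) in shRNA-Con against 0.930 (0.838 to 1.03) in the shRNA-SOX2-labelled library, a 1.37-fold higher ratio (1.21 to 1.56). The ratio of SLC7A5 to SLC3A2 went from 0.745 (0.694 to 0.800) to 0.469 (0.412 to 0.532), that is to 0.629 of its shRNA-Con value (0.543 to 0.728). The balance of the cystine light chain against the leucine light chain, SLC7A11 to SLC7A5, was thus 0.909 (0.841 to 0.983) and 1.98 (1.74 to 2.26), a 2.18-fold difference (1.88 to 2.54).

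The SLC1 and SLC38 pairs shifted as well. SLC1A4 to SLC1A5 was 0.181 in shRNA-Con against 0.0859 in the shRNA-SOX2-labelled library, so that the ratio was at 0.475 of its shRNA-Con value (95% interval 0.336 to 0.663). SLC38A1 to SLC38A2 was 1.05 and 0.572, at 0.547 of its shRNA-Con value (0.452 to 0.662). For SLC7A1 to SLC7A5 no difference was detectable, with ratios of 0.359 and 0.357 and a change of 0.994 (0.785 to 1.25).

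**Figure D3:**
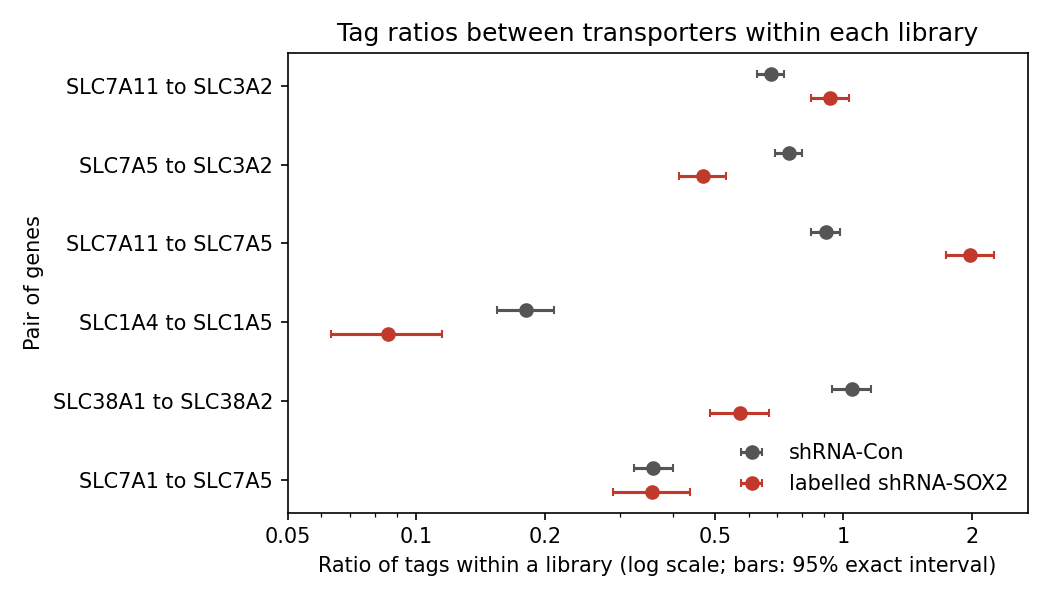
Ratio of tags of 2 transporters within each library for 6 pairs fixed by partnership or relation, with 95% counting intervals and shRNA-Con beside the shRNA-SOX2-labelled library. The ratio of SLC7A11 to SLC7A5 is the one that lies highest in the shRNA-SOX2-labelled library, at 1.98 against 0.909, and SLC7A1 to SLC7A5 lies at 0.359 and 0.357.

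The light chains of SLC3A2 with at least 20 tags were then summed, a measure chosen after the values had been seen. SLC7A10, another light chain, had 0 and 4 tags and was not included, and the light chain SLC7A8 was not analysed here. SLC7A5, SLC7A6, SLC7A7 and SLC7A11 together had 2839 tags in shRNA-Con, 1.56 per SLC3A2 tag (95% interval 1.47 to 1.66). In the shRNA-SOX2-labelled library they had 1219 tags, 1.59 per SLC3A2 tag (1.45 to 1.74), a change of 1.02 (0.912 to 1.14). The makeup of the light chains differed while their sum per heavy chain did not detectably do so. SLC7A5 made up 47.6% of the light-chain tags in shRNA-Con against 29.5% in the other library, and SLC7A11 made up 43.3% and 58.4%. SLC7A6 and SLC7A7, which carry dibasic and neutral amino acids, held 5.0% and 4.09% in shRNA-Con and 7.71% and 4.43% in the shRNA-SOX2-labelled library.

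These values stand against a table in which many genes differed. Of all 13137 genes, 12.2% were called lower at FDR 0.001 and 9.53% higher, so that 8 of 9 transporters stands beside a background of 12.2%. Calls are more frequent among deeply counted genes. Among genes counted at least 500 times over both libraries, a level chosen after the values had been seen, 32.6% were called lower. A log2 fold change of -1 or lower was held by 6 of the 9 transporters and by 13.0% of the 10045 genes with at least 20 tags. Both criteria together were met by 5 transporters and by 6.77% of all genes. The median log2 fold change was -1.17 for the transporters and -0.10 for these genes. SLC1A4 lay among the lowest 2.51% of fold changes, SLC7A1 among the lowest 2.86%, SLC7A5 among the lowest 2.94%, and SLC38A2 at 29.4%. The lower share of all calls was 56.1% by gene tags, 49.4% after TMM and 66.6% by clean tags.

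**Figure D4:**
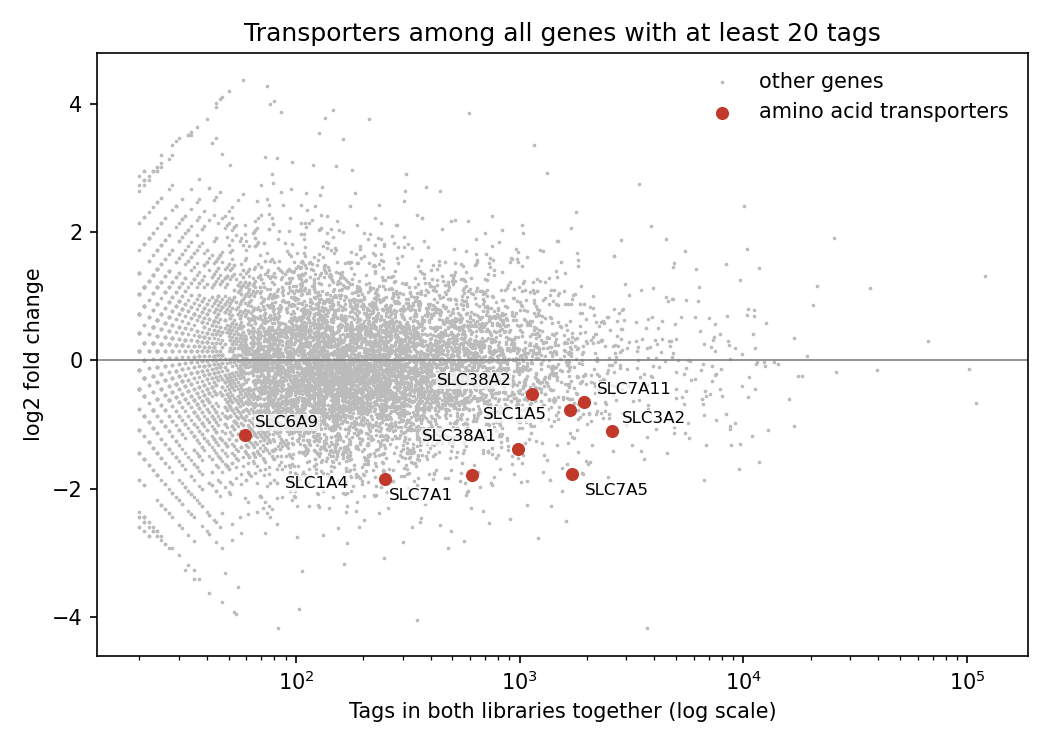
Log2 fold change (shRNA-SOX2-labelled library over shRNA-Con) against the tags in both libraries together (log axis) for 10045 genes with at least 20 tags, with the 9 transporters in red. The transporters lie below 0 from -0.52 to -1.85, and SLC3A2, SLC7A11, SLC7A5 and SLC1A5 are among the deeply counted genes.

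Fisher's exact test takes the spread between cultures as 0. When edgeR's exact test was given a biological coefficient of variation of 0.1, 5 of the 9 transporters passed FDR 0.001, namely SLC7A5, SLC7A1, SLC3A2, SLC1A4 and SLC38A1, as did 4.98% of all genes in the lower direction. At 0.2, 0 passed (0.365% of all genes lower), with adjusted p-values from 0.00277 for SLC7A5 to 0.567 for SLC38A2 and 5 transporters at an unadjusted p under 0.05.

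Promoter sequences were then read for the element named above. In the RefSeq promoter set of GRCh38.p14, which spans 250 bases before to 50 after each start site, 9 of the 10 transporters had an entry, with 16 windows in all, and SLC7A11 had none. Both strands were searched for TGATGNAA, the core of the C/EBP-ATF response element. It was found in 3.62% of 35116 windows and for 4.46% of 27305 genes. Among the transporters it was found for 5 of 9, in 5 of their 16 windows. The log2 fold changes of these 5 were -1.85 (SLC1A4), -1.78 (SLC7A1), -1.39 (SLC38A1), -1.11 (SLC3A2) and -0.78 (SLC1A5). Whether a match goes with a fold change was not tested. The matches of all 5 are printed here. Each is read along the gene 5′ to 3′ with the match in capitals, those of SLC1A4 and SLC3A2 being the reverse complement. Of other genes known to respond to amino acid shortage, CHAC1 had a match, while TRIB3, XPOT, MTHFD2 and PSAT1 had none in these windows. ASNS, the gene of asparagine synthetase, has a match and is added for comparison.
SLC1A4: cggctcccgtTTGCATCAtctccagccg
SLC38A1: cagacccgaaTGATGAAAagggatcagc
SLC7A1: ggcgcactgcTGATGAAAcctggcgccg
SLC3A2: gcaggactccTTACATCAgctcc
SLC1A5: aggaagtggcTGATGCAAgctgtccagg
ASNS: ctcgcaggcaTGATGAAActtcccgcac

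The printed stretches lie at chr2:64989382-64989409 on the plus strand for SLC1A4, chr12:46266503-46266530 on the minus strand for SLC38A1 and chr13:29595664-29595691 on the minus strand for SLC7A1. Those of SLC3A2 and SLC1A5 lie at chr11:62881726-62881748 on the plus strand and chr19:46784894-46784921 on the minus strand, and that of ASNS at chr7:97872459-97872486 on the minus strand. Counted from the start site of its window, the match begins at base -7 for SLC1A4, -4 for SLC38A1, 8 for SLC7A1, 38 for SLC3A2 and -97 for SLC1A5. SLC38A1, SLC7A1 and ASNS carry the same 8 letters. The transporters without a match in these windows were SLC7A5, SLC38A2, SLC6A9 and SLC43A1. Of these, SLC7A5 had a log2 fold change of -1.77, beside -1.78 for SLC7A1, which has a match.

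Other short motifs were read in the same windows on both strands. The E-box CACGTG was found for SLC7A5, SLC1A5 and SLC43A1 and for 8.77% of all genes. The core of the antioxidant response element, TGACNNNGC, was found for SLC7A5, SLC7A1, SLC3A2 and SLC1A5, 4 of 9, against 16.1% of all genes. The SOX core ACAANG was found for SLC3A2, SLC1A5, SLC38A2, SLC6A9 and SLC43A1, 5 of 9, and for 40.3% of all genes. No matches of different motifs overlapped in the transporters' windows. Such matches are letters in a window, and binding was not measured.

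Among other amino acid transporters of the cell surface, 14 were analysed of 36 listed. Of the 14, 3 were called lower (21.4%, beside 12.2% of all genes) and 1 higher (7.14%, beside 9.53%), with a median log2 fold change of -0.40 over the 9 with at least 20 tags. SLC7A7, the y+LAT1 light chain, had 116 and 54 tags (log2 fold change -0.96, adjusted p = 0.00017, Fisher's exact test). SLC6A15, a carrier of branched-chain amino acids and proline, had 35 tags in shRNA-Con against 2 in the shRNA-SOX2-labelled library (adjusted p = 3.29e-07, Fisher's exact test). SLC7A2, another cationic amino acid carrier, had 21 tags and 0 (adjusted p = 9.98e-06, Fisher's exact test). With the 0 set to the floor of 3 tags, this is 6.36-fold lower. The taurine carrier SLC6A6 went the other way, with 272 and 446 tags (log2 fold change 0.85, adjusted p = 1.18e-13, Fisher's exact test).

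Carriers of internal membranes had 971 tags in all in shRNA-Con against 810 in the other library. Of 15 lysosomal, vesicular and mitochondrial amino acid carriers 12 were analysed and 0 passed Fisher's exact test in either direction, beside 12.2% lower and 9.53% higher of all genes, with 3 lower and 2 higher at an unadjusted p under 0.05, 4 past FDR 0.05, 0 by edgeR at a coefficient of 0.1 and a median log2 fold change of 0.07. The difference between the cell-surface and internal carriers was not tested.

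Genes known to respond to amino acid shortage, to which the transporters are often assigned, were lower in most cases. This list, too, was chosen with earlier results of these data known. Of 35 analysed of 36 listed, 22 (62.9%) were called lower and 0 higher by Fisher's exact test, beside 12.2% and 9.53% of all genes, with 27 and 1 at an unadjusted p under 0.05, and the median log2 fold change was -1.29. The pseudokinase gene TRIB3 had 3545 tags in shRNA-Con against 178 in the shRNA-SOX2-labelled library (log2 fold change -4.18). PHGDH, the entry enzyme of serine synthesis, had 266 and 34 (-2.83), and XPOT, which exports tRNA from the nucleus, had 1070 and 143 (-2.77). MTHFD2, a mitochondrial folate enzyme, had 778 and 127 (-2.48). ATF4 itself had 824 and 548 tags (-0.45, adjusted p = 1.23e-07, Fisher's exact test), beside -0.52 for SLC38A2.

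The cystine and glutathione list holds enzymes of glutathione synthesis and use, other cystine carriers, the transsulfuration pathway and the NFE2L2 antioxidant response. Of 24 analysed, 7 were called lower and 7 higher, 29.2% each beside 12.2% and 9.53% of all genes, with a median log2 fold change of 0.02. CBS, of the transsulfuration pathway, had 142 tags in shRNA-Con against 40 in the shRNA-SOX2-labelled library (log2 fold change -1.69), and NFE2L2, the transcription factor of the antioxidant response, had 225 and 100 (-1.03). The glutathione peroxidases GPX2 and GPX1 were higher, with 1385 and 4079 tags (1.70) and 191 and 386 tags (1.15), and NQO1, a quinone reductase, had 4179 and 6200 (0.71). HMOX1 was called higher as well (0.69), while GSR (-0.81) and OSGIN1 (-0.75) were called lower. Of the enzymes of glutathione synthesis, GCLC (-0.52) and GSS (-0.72) were called lower, and GCLM (-0.11) was not called.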

How the data were processed

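The authors deposited tag counts per Entrez Gene ID for 2 libraries, without normalization, and the same values as TPM, which they scaled to the clean tags of the whole library. TPM was used only to obtain clean tags, and 65.5% (shRNA-Con) and 60.6% (shRNA-SOX2) of them were on genes. The authors' deposited log2 ratio, p-value and FDR columns hold their own comparison and were not used. The submitters' processing notes name hg19. The mapper and annotation are not given in the sources used here. The smallest count above 0 in the table is 2.

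Shares of gene tags were compared with Fisher's exact test, two-sided, and p-values were adjusted after Benjamini and Hochberg over 13137 genes (threshold FDR 0.001). Fold changes used counts below 3 set to 3. Intervals are 95% Clopper-Pearson, except for changes in a ratio of tags and differences between fold changes, which have exact conditional intervals of an odds ratio. All include no error but that of counting. Set to 3 tags, a count of 0 stands for 1.30 CPM (tags scaled to 1000000 gene tags) in shRNA-Con against 1.43 in the shRNA-SOX2-labelled library. Medians used genes with at least 20 tags. Alternatives were TMM, median-ratio and clean-tag scaling, a minimum of 10 tags, a pseudocount of 0.5, edgeR's exact test with an assumed coefficient of variation of 0.1, 0.2 or 0.4, FDR 0.05, and an added limit of 1 on the size of the log2 fold change. Python 3.11.15, scipy 1.17.1, matplotlib 3.10.9, R 4.3.3, edgeR 4.0.16 and DESeq2 1.42.0 were used. Fisher's exact test, the interval of a fold change and edgeR's exact test were run on simulated counts. These had counting error only, so they cannot show how the tests do with spread between cultures.

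All 10 transporters were to be named, and from the other lists the called genes with at least 20 tags, at most the 4 largest and 4 smallest fold changes per list, besides the list genes with the most tags. ATF4, CHAC1, PSAT1, SLC7A6, SLC7A10, GCLC, GCLM and GSS were named outside this rule, after their values were seen. SLC7A8, which was not analysed, was named outside it too. The members and lists were chosen with earlier results of these data known. Some genes are in more than 1 list. Libraries were grouped by their labels.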

Additional observations from a re-analysis of the deposited data

How the results depend on the processing

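All 36 recomputed fold changes of the 9 transporters kept their direction and stayed within the counting interval under TMM, median-ratio and clean-tag scaling and the pseudocount of 0.5. The log2 ratio of the summed share, -1.07 (95% interval -1.13 to -1.01), kept its direction and moved out of that interval, to -0.998 under TMM, -1.0 under median-ratio scaling and -1.18 under clean-tag scaling. Counts of calls changed with the assumed spread between cultures. With edgeR's exact test at a coefficient of variation of 0.1, calls went from 8 to 5 for the transporters, from 1597 to 654 lower and from 1252 to 512 higher for the table, from 4 to 2 for other cell-surface transporters, from 14 to 3 for cystine and glutathione genes, from 7 to 1 for glutamine and branched-chain enzymes and from 14 to 6 for mTORC1 sensing genes. At 0.2 these were 0, 48, 65, 1, 0, 0 and 1, and amino acid response genes went from 22 to 8. At 0.4 the counts were 0 throughout, with 3 transporters and 627 genes at an unadjusted p under 0.05. At FDR 0.05 they were 2754 lower and 2148 higher for the table, 4 for internal carriers (0 at FDR 0.001) and 11 for the glutamine and branched-chain enzymes. With an added limit of 1 on the size of the log2 fold change, they were 5 for the transporters, 889 lower and 681 higher for the table, 2 for other cell-surface transporters, 4 for cystine and glutathione genes and 4 for glutamine and branched-chain enzymes. Clean tags gave 1 call among internal carriers. No paired analysis was possible because there is a single library for either hairpin, and none could be left out for that reason. Depth limits SLC6A9 most, with 42 and 17 tags.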

Other observations

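Of 21 analysed of 22 glutamine and branched-chain amino acid enzymes, 3 (14.3%) were called lower and 4 (19.0%) higher in the shRNA-SOX2-labelled library, beside 12.2% and 9.53% of all genes, so that the lower share was near the background, with a median log2 fold change of -0.06. Asparagine synthetase (ASNS) had 430 tags in shRNA-Con against 116 in the other library (-1.75), ASS1, which makes argininosuccinate, had 45 and 13 (-1.65), and the aminotransferase BCAT1 had 228 and 131 (-0.66). DBT had 24 and 54 tags (1.31). The branched-chain ketoacid dehydrogenase subunit BCKDHA had 74 and 146 tags (1.12), and glutamate dehydrogenase, GLUD1, had 261 and 342 (0.53).

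Of 34 analysed of 37 genes of amino acid sensing by mTORC1, 4 (11.8%) were called lower, near the 12.2% of all genes, and 10 (29.4%) higher, beside 9.53% of all genes. The median log2 fold change was 0.04. EIF4EBP1, a translation repressor that mTORC1 phosphorylates and that is also in the amino acid response list, had 479 tags in shRNA-Con against 105 in the shRNA-SOX2-labelled library (-2.05). SEH1L had 169 and 41 (-1.91), and MLST8, a subunit of mTORC1, had 257 and 110 (-1.09). SESN1, a sestrin, had 23 and 82 (1.97), and HBXIP, the LAMTOR5 subunit of the Ragulator complex, had 432 and 1024 (1.38).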
